A study of Mus musculus and Rattus norvegicus with 51 samples.

Results

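The 27 genes described here make, sense and move cholesterol, and they were taken by name from a list of the pathway, with no threshold on a measured value. They stood among 24982 genes in the count table of the MO and CCl4 livers, 24421 in that of the fibrosis and resolution livers and 17327 in that of cultured cells, and all 27 were present in each table. By role, 4 control sterol sensing (Srebf2, Scap, Insig1, Insig2), 7 are enzymes of the mevalonate steps (Acat2, Hmgcs1, Mvk, Pmvk, Mvd, Idi1, Fdps), and 11 are enzymes from squalene to cholesterol (Fdft1, Sqle, Lss, Cyp51, Tm7sf2, Msmo1, Nsdhl, Hsd17b7, Ebp, Sc5d, Dhcr7). The last 5 act in transport and efflux (Stard4, Abca1, Abcg1, Nr1h2, Nr1h3).

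The study asked how forms of the protein HMGB1 that differ in redox state, labelled [H], [O] and [SO3], bear on liver fibrosis and its resolution. It sequenced RNA from 51 samples, 39 of them whole mouse livers and 12 cultures of the rat hepatic stellate cell line HSC-T6. In the first liver experiment, wild-type mice received MO (n = 3) or the liver toxicant CCl4 (n = 4) over 4 weeks, and mice of the genotype Hmgb1ΔHepΔMye, here called knockout, received either agent together with WT HMGB1 (n = 3 and n = 4) or with Δ[O] HMGB1 (n = 3 and n = 4). The deposited counts of this experiment also carry the label AAV8, the name of a viral vector. The sample titles do not say which mice received it. The abbreviations MO, Hep, Mye, Δ[O] and Ab are not spelled out in the labels. In the second liver experiment all mice were wild-type: at 4 weeks of CCl4 they had received BSA, [H] HMGB1 or [O] HMGB1 (3 livers each), and after 1 week of regression BSA, [SO3] HMGB1 or HMGB1 Ab (3 livers each). The cells had BSA, [H], [O] or [SO3] HMGB1 for 6 hours (3 cultures each). Every knockout group carried an HMGB1 construct and no wild-type group did, so genotype and construct cannot be told apart between them. The labels do not say whether samples of a group were separate animals or cultures, and if they were not, the p-values measure a technical spread only.

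Cholesterol is built from acetyl-CoA through mevalonate, isoprenoids, squalene and lanosterol. When sterol in the endoplasmic reticulum runs low, SCAP carries SREBP2, the product of Srebf2, to the Golgi, where it is cleaved into a transcription factor that acts on nearly every enzyme of the path, whereas the INSIG proteins hold SCAP back when sterol is plentiful. Surplus cholesterol gives oxysterols that activate the liver X receptors, products of Nr1h2 and Nr1h3, whose target genes Abca1 and Abcg1 encode pumps that export cholesterol. The hepatocyte is the main site of synthesis for the body, whereas stellate cells, the collagen-making cells of fibrosis, make it largely for their own membranes.

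In units of 1000000 gene counts, libraries held 22.6 to 39.3 in the MO and CCl4 experiment, 8.36 to 16.3 in fibrosis and resolution, and 11.8 to 16.98 in cells. Levels are given as counts per 1000000 counts (CPM) after scaling by the trimmed mean of M-values (TMM). Differences are log2 values with the standard error (SE) from edgeR's quasi-likelihood test, and a call means an adjusted p under 0.05 (Benjamini-Hochberg, over every gene tested in that table). Several libraries went against their labels. All 39 livers are labelled Male, yet 10 held the transcript Xist, made by female cells, at 66.0 to 946 CPM, and the others at 5.05 CPM or less. These 10 were numbers 2 and 3 of each fibrosis group, numbers 1 and 2 of the [SO3] resolution group, and number 3 of each knockout MO group. Of the 10, 5 held the Y-linked Ddx3y at 0.0726 to 0.824 CPM and the other 5 at 2.66 to 84.8 beside Xist, among them [H] fibrosis liver 3 (Xist 65.98, Ddx3y 84.8) and [SO3] resolution liver 2 (Xist 215, Ddx3y 48.2). The other 29 livers held Ddx3y at 42.4 to 98.9 CPM. Counts of called genes are therefore also given without the 10, where a group left with 1 liver is assumed to vary like the others. Hmgb1 itself did not check the knockout labels, since the constructs can give Hmgb1 counts: it stood at 72.8 to 77.3 CPM in wild-type MO livers, 57.2 to 107 with CCl4, 63.9 to 74.7 and 44.9 to 74.1 in knockout livers with WT HMGB1, and 131 to 215 and 61.7 to 92.3 with Δ[O] HMGB1.

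In wild-type livers most enzymes of the synthesis path were higher after CCl4. Of the 27 genes, 12 rose and 4 fell against MO, where 46.3% of the 14129 genes tested were called. Enzymes made up 11 of the 12 that rose, 6 of the 7 mevalonate enzymes among them, and the median log2 difference was 0.42 over the 27 genes and -0.00 over all genes. None of the livers compared here held Xist, so leaving out those that did changed only the shared fit, where 11 rose and 4 fell. Fdps lost its call in 8 of 14 alternatives. In whole liver, fewer cells of a type and less RNA per cell cannot be told apart. The summed level of 9 hepatocyte markers was 145325 to 161949 CPM with MO and 80784 to 119271 with CCl4, and that of 9 stellate and myofibroblast markers 47.9 to 106 and 346 to 784. Levels of 4 genes of feeding and of the daily clock did not overlap between the same groups, and 3 of the 4 passed the test, Pck1 not (adjusted p = 0.0728). Over all genes tested, 23.4% lay wholly above MO with CCl4 and 24.8% wholly below. Pck1 and G6pc, fasting-induced enzymes of glucose synthesis, were at 6189 to 6403 and 759 to 933 CPM with MO and 2096 to 4346 and 79.1 to 228 with CCl4. Fasn, the feeding-induced fatty acid synthase, was at 105 to 151 and 226 to 590.1 CPM, and Cry1, a clock repressor, at 40.9 to 50.8 and 15.4 to 26.1. Of the other clock genes, Tef and Nr1d1 did not overlap either, whereas Arntl, Npas2, Dbp, Per1, Per2 and Per3 did. The part of the feeding and clock genes in the result was not tested.

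Hmgcs1, the enzyme that makes HMG-CoA at the head of the mevalonate steps, had the largest rise. It was at 159, 123 and 121 CPM in wild-type MO livers 1 to 3 and at 645, 593, 479.9 and 347 in CCl4 livers 1 to 4, so the lowest CCl4 liver lay well above the highest MO liver. On the log2 scale it rose by 1.94 (SE 0.25, adjusted p = 4.2e-06). Lss, which closes squalene epoxide into lanosterol, went from 51.4, 40.8 and 40.8 CPM to 201, 161, 146 and 78.9, a log2 difference of 1.73 (SE 0.30, adjusted p = 0.000144). Mvd, the last step before the isoprenoid units, went from 7.86, 7.54 and 7.07 to 36.02, 34.7, 20.6 and 15.1 CPM and rose by 1.83 (SE 0.36, adjusted p = 0.00043). For neither did the groups overlap, and in both the CCl4 liver number 4 was the lowest of its group. That liver was the lowest of the 4 for 16 of the 18 enzymes. Sc5d, a late desaturase, went from 286, 217 and 172 to 682, 355, 416 and 346 CPM, a log2 difference of 1.000 (SE 0.23, adjusted p = 0.00174).

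Sqle, the squalene epoxidase and a rate-limiting step, was at 86.8, 74.6 and 67.9 CPM with MO and 199, 175, 184 and 95.9 with CCl4, and rose by 1.10 (SE 0.27, adjusted p = 0.00228). Insig1, itself a target of SREBP2, was at 199.9, 154 and 152 and 454, 313, 316 and 214 CPM and rose by 0.94 (SE 0.27, adjusted p = 0.00688). Again no CCl4 liver fell within the MO range for either gene. The other genes that rose were Mvk, Pmvk, Idi1, Fdps, Fdft1 and Cyp51, by 0.67 to 1.24, and for Idi1 and Fdps, the 2 with the highest adjusted p (0.0398 and 0.0468), single livers of the groups overlapped.

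Against this direction, 4 genes fell. Tm7sf2, a sterol reductase, went from 177, 152 and 178 CPM in the MO livers to 60.3, 51.8, 87.05 and 40.3 in the CCl4 livers, a log2 difference of -1.50 (SE 0.21, adjusted p = 1.17e-05). Insig2, the INSIG form that is not driven by SREBP2 in liver, went from 416, 375 and 382 to 90.4, 112, 79.2 and 83.01 CPM, a log2 difference of -2.10 (SE 0.33, adjusted p = 4.37e-05). Both groups were far apart in each case, and Insig1 and Insig2 thus changed in opposite directions. Nr1h3, the liver X receptor alpha, fell from 111, 110.0 and 126 to 77.02, 68.8, 74.96 and 92.2 CPM, a log2 difference of -0.56 (SE 0.11, adjusted p = 0.000408). Ebp, a sterol isomerase, fell from 276, 251 and 321 to 168, 145, 214 and 187 CPM, a log2 difference of -0.66 (SE 0.17, adjusted p = 0.00399). The calls of these last 2 rest on the scaling: with library totals alone the median of all genes shifts by 0.46, neither is called, and the split becomes 18 higher and 2 lower. The 11 genes that did not pass the test were Srebf2, Scap, Acat2, Msmo1, Nsdhl, Hsd17b7, Dhcr7, Stard4, Abca1, Abcg1 and Nr1h2. Srebf2 was at 78.3, 56.9 and 57.1 CPM with MO and 70.5, 79.5, 66.03 and 57.5 with CCl4 (log2 difference 0.09, adjusted p = 0.758).

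**Figure D1:**
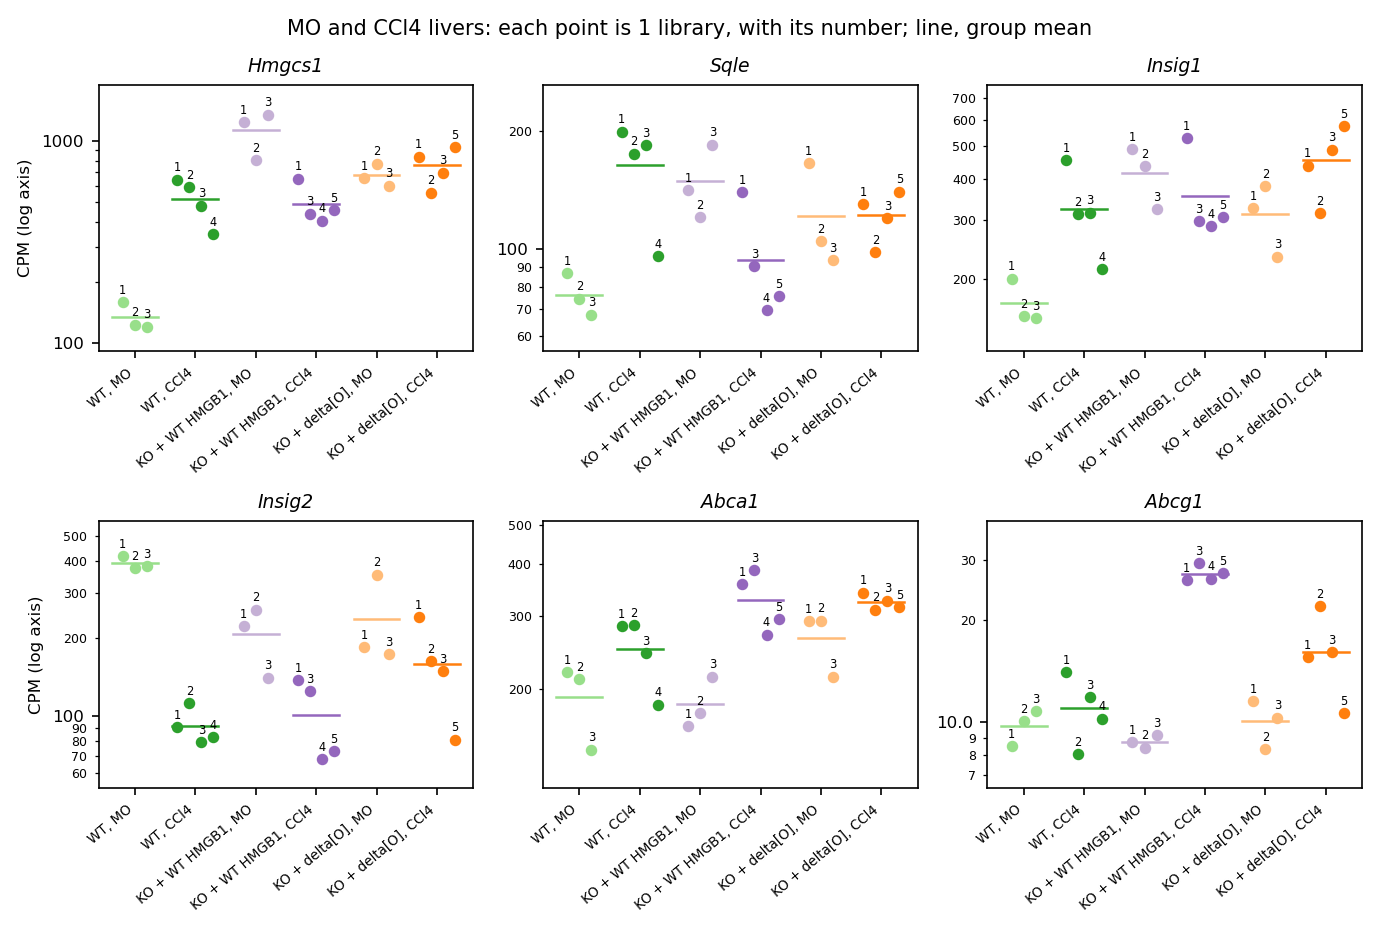
CPM on a log scale of 6 genes in each of the 21 MO and CCl4 livers, by group (points: livers, with numbers; lines: group means). Hmgcs1 lies lowest in wild-type MO livers and highest in knockout MO livers with WT HMGB1, and Abcg1 stands apart in knockout CCl4 livers with WT HMGB1.

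The stretch before the start site is shown for 4 of these genes: Hmgcs1 and Mvd, which moved most among the mevalonate enzymes, Insig1 as the sensor that rose with them, and Abca1 as an efflux gene that did not pass the test in the wild type. RefSeq windows on the build GRCm38.p6 were found for 22 of the 27 genes. Each sequence is the 250 bases before the start site, 5′ to 3′ on the gene's strand: chr13:119690101-119690350 (plus strand), chr8:122443423-122443672 (minus), chr5:28071162-28071411 (plus) and chr4:53159896-53160145 (minus). Capitals mark matches, on either strand, to the SRE-like letters TCACNCCAC, a form of the sterol regulatory element that SREBP binds, to the CCAAT box, the site of the SREBP partner NF-Y, and to the E-box CACGTG.
Hmgcs1: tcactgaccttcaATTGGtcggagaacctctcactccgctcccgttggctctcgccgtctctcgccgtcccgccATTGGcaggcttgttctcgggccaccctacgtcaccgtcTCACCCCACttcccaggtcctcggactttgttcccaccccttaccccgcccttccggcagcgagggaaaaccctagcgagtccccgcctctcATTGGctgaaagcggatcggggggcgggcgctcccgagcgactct
Mvd: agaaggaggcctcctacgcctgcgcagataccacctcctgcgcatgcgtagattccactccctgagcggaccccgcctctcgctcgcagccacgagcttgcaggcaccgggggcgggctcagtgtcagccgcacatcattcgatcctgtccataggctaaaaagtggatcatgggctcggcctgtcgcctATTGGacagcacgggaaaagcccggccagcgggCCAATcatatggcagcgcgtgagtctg
Insig1: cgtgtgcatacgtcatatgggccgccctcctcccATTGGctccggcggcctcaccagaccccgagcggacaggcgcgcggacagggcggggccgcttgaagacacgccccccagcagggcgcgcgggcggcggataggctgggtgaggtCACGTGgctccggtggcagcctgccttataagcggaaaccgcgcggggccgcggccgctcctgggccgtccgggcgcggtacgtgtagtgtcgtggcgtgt
Abca1: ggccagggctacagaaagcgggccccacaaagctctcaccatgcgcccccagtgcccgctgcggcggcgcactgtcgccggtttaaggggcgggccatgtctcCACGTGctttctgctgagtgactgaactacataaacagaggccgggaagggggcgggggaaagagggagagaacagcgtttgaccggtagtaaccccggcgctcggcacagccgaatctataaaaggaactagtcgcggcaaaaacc
Over windows of 250 bases before and 50 after the start, the SRE-like letters were found in 1 of the 22 genes, Hmgcs1, against 1.44% of 27025 genes, and CCAAT in 17 of the 22, against 41.1%. The 5 without CCAAT were Scap, Acat2, Abca1, Nr1h2 and Nr1h3, so 14 of the 15 enzymes with a window held it. CACGTG was found in 6 (Scap, Insig1, Hsd17b7, Sc5d, Dhcr7 and Abca1), against 8.09% of genes. For the DR4 element of the liver X receptors, only 2 exact AGGTCA half-sites in direct repeat with a gap of 4 bases were searched for. These letters were in none of the 22 and in 0.0148% of genes. Half-sites that depart from AGGTCA were not searched for, so the search cannot show that a gene, Abca1 included, lacks such an element. No match to 1 motif overlapped a match to another in these genes (0 pairs over 45 matches), and a match is a description of the letters only.

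In knockout livers with WT HMGB1, CCl4 was followed by lower levels. Here 2 of the 27 genes rose and 15 fell with CCl4, where 47.3% of genes were called. All 18 enzymes had a negative log2 difference and 12 were called, with a median of -0.61 over the 27 genes and -0.03 over all genes. Hmgcs1 went from 1245, 802 and 1354 CPM in MO livers 1 to 3 to 652, 437, 404 and 454 in CCl4 livers 1, 3, 4 and 5, a log2 difference of -1.22 (SE 0.23, adjusted p = 0.000261). The MO livers were thus the high ones, the reverse of the wild-type order. Between the genotypes the CCl4 levels of Hmgcs1 differed by -0.08 (95% interval -0.50 to 0.33, adjusted p = 0.8).

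Msmo1, a sterol C4-methyl oxidase, was at 282, 226 and 346 CPM with MO and 139, 99.7, 88.1 and 86.9 with CCl4, a log2 difference of -1.46 (SE 0.24, adjusted p = 8.4e-05). Fdft1, the squalene synthase, was at 186, 159 and 207 and 94.3, 69.1, 86.5 and 92.5 CPM, a difference of -1.10 (SE 0.21, adjusted p = 0.000284). Tm7sf2 fell here as it did in the wild type, from 177, 181 and 163 to 97.2, 72.2, 55.3 and 49.7 CPM, a log2 difference of -1.34 (SE 0.21, adjusted p = 4.53e-05). In all of these the groups were separate. Over all genes tested, 24.8% lay wholly above MO and 23.9% wholly below. Sqle was at 141, 121 and 185 and 139.8, 90.3, 69.8 and 75.8 CPM, with 1 CCl4 liver in the MO range (-0.67, adjusted p = 0.0387), and lost its call in 8 of 14 alternatives. Insig1 did not pass the test, at 491, 435 and 323 and 529, 298, 287 and 307 CPM (-0.23, adjusted p = 0.488). Srebf2 was at 52.04, 55.6 and 125 CPM with MO, 1 liver far above the others, and at 52.7, 51.2, 53.7 and 46.5 with CCl4 (-0.61, adjusted p = 0.0261). The other genes that fell were Insig2, Mvk, Mvd, Fdps, Cyp51, Nsdhl, Hsd17b7, Ebp and Nr1h3, by log2 differences of -1.11 to -0.35. Those not called were Scap, Insig1, Acat2, Pmvk, Idi1, Lss, Sc5d, Dhcr7, Stard4 and Nr1h2.

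Both efflux pumps rose while the enzymes fell. Abcg1, which loads cholesterol onto high-density lipoprotein, went from 8.71, 8.40 and 9.15 CPM to 26.2, 29.4, 26.5 and 27.5, a log2 difference of 1.65 (SE 0.20, adjusted p = 4.83e-06), with every CCl4 liver far above every MO liver. Abca1, which loads lipid-poor apolipoprotein, went from 162, 174 and 214 to 359, 388, 270.2 and 295 CPM, a log2 difference of 0.84 (SE 0.18, adjusted p = 0.001). In the wild type neither passed the test: Abcg1 was at 8.52, 10.1 and 10.8 CPM with MO and 14.02, 8.03, 11.9 and 10.2 with CCl4 (0.18, adjusted p = 0.486), and Abca1 at 219, 211 and 142 and 284, 285, 244 and 183 (0.39, adjusted p = 0.0883). Wild-type Abca1 was called higher with library totals alone (0.85, adjusted p = 0.00249), with the replicate block (0.50, adjusted p = 0.0153) and without wild-type CCl4 liver 4 (0.56, adjusted p = 0.013). Wild-type Abcg1 was called higher with library totals alone (0.63, adjusted p = 0.0219). The difference between the responses was not called for Abca1 (0.45, adjusted p = 0.258, 95% interval -0.05 to 0.95). Abcg1 is also a macrophage gene, and the summed level of 10 macrophage markers was 287 to 465 CPM in these MO livers and 958 to 1043 in the CCl4 livers, against 599.6 to 641 and 497 to 774 in the wild type. Hepatocyte markers summed to 98889 to 142240.0 and 78385 to 87025 CPM and stellate markers to 86.8 to 124 and 1427 to 2084, and their part was not tested. With library totals alone, 2 rose and 7 fell, and without the livers holding Xist 2 rose and 11 fell.

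The genotypes also differed in livers that had no CCl4. Of the 27 genes, 13 were higher in knockout livers with WT HMGB1 than in wild-type livers and none was lower, where 24.2% of genes were called. The 13 were 12 enzymes and Insig1, and the median was 0.69 against 0.03 over all genes. Hmgcs1 differed by 3.08 (SE 0.27, adjusted p = 2.81e-07), 8.43-fold, from the values given above. Sc5d was at 989, 946 and 744 CPM in the knockout MO livers, a difference of 1.99 (SE 0.25, adjusted p = 1.72e-05) from the wild-type MO livers. Mvd was at 35.5, 35.5 and 42.9 CPM (2.34, adjusted p = 0.000202). For these 3 genes and for Fdft1 (1.28, adjusted p = 0.000402), every knockout liver lay above every wild-type liver, as in 21.2% of all genes tested. Insig1 differed by 1.30 (adjusted p = 0.00225) and Sqle by 0.96 (adjusted p = 0.016). The other 7 were Acat2, Mvk, Pmvk, Lss, Cyp51, Nsdhl and Dhcr7, at 0.66 to 1.23. The 14 not called included Srebf2 (0.28, adjusted p = 0.418), Insig2 (-0.92, adjusted p = 0.0623), Abca1 (-0.06, adjusted p = 0.868) and Abcg1 (-0.16, adjusted p = 0.634), with Scap, Idi1, Fdps, Tm7sf2, Msmo1, Hsd17b7, Ebp, Stard4, Nr1h2 and Nr1h3. Without the livers holding Xist 10 were higher and none lower, and Dhcr7 lost its call in 8 of 13 alternatives.

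Some feeding and clock genes also differed between these MO livers, whereas Arntl and Dbp overlapped. Over all genes tested, 21.2% lay wholly above the wild type and 18.7% wholly below. Pck1 was at 6189 to 6403 CPM in the wild type and 1411 to 1619 in the knockout, Fasn at 105 to 151 and 554 to 913, and Cry1 at 40.9 to 50.8 and 5.82 to 13.00, with no overlap for any of the 3. Whether feeding or the hour of sampling had a part in the difference was not tested.

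With CCl4 in both genotypes, 2 of the 27 genes were higher in the knockout with WT HMGB1 than in the wild type and 6 were lower, where 28.8% of genes were called, near the members' own share. Abcg1 differed by 1.31 (SE 0.18, adjusted p = 2.9e-05), with no overlap between the groups given above. Of all genes tested, 17.7% lay wholly above the wild type. Sc5d was higher, at 956, 616, 718 and 853 CPM (0.81, adjusted p = 0.00765). Lower were Cyp51, which demethylates lanosterol, at 191, 144, 152 and 161 against 339, 275, 346 and 185 CPM (-0.82, adjusted p = 0.0013), Msmo1 (-0.90, adjusted p = 0.00566), Fdps (-0.88, adjusted p = 0.0107), Sqle (-0.80, adjusted p = 0.0167), Fdft1 and Lss. Each of these 6 except Fdft1 overlapped between the groups, wild-type CCl4 liver number 4 lying within the knockout range. Insig1 (0.13, adjusted p = 0.717), Srebf2 (-0.42, adjusted p = 0.123), Abca1 (0.40, adjusted p = 0.08) and Hmgcs1 (-0.08, adjusted p = 0.8) did not pass the test. Same-numbered livers deviated together here, and with the replicate number as a block Abca1 was called (0.47, adjusted p = 0.0235), 9 genes in all. Lss lost its call in 9 of 15 alternatives. The count was 5 without wild-type CCl4 liver 1 or without knockout CCl4 liver 4, 12 without wild-type CCl4 liver 4, and 10 (2 higher, 8 lower) without the livers holding Xist. None of the livers compared here held Xist, so that last count changed only through the shared fit.

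The difference between the responses was tested directly, as the CCl4 effect in the knockout with WT HMGB1 minus that in the wild type. It was called in 15 of the 27 genes, 14 of them negative, where 13.5% of genes were called. Hmgcs1 differed by -3.16 (SE 0.33, adjusted p = 1.55e-05), Mvd by -2.94 (SE 0.48, adjusted p = 0.000801), Fdft1 by -1.86 (SE 0.30, adjusted p = 0.00062) and Cyp51 by -1.61 (SE 0.26, adjusted p = 0.000649). The other negative calls were Insig1, Mvk, Pmvk, Idi1, Fdps, Sqle, Lss, Msmo1, Sc5d and Dhcr7, from -2.07 to -0.95. Over 21 alternatives, Dhcr7 lost its call in 15, Idi1 in 13, Pmvk in 11, Insig1 in 9 and Sc5d in 3. Abcg1 was the 1 positive call, at 1.47 (SE 0.28, adjusted p = 0.0018). This comparison uses the same livers as those above, the MO levels as well as the CCl4 levels. Without the livers holding Xist the split was 1 positive and 11 negative.

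With Δ[O] HMGB1 in place of WT HMGB1 in the knockout, CCl4 changed 3 of the 27 genes against MO, 1 up and 2 down, where 24.2% of genes were called. Hmgcs1 was at 657, 773 and 602 CPM with MO and 838, 557, 699 and 938 in CCl4 livers 1, 2, 3 and 5, with overlapping ranges (log2 difference 0.16, 95% interval -0.29 to 0.61, adjusted p = 0.651). Msmo1 fell from 294, 233 and 186 to 114, 115, 119.6 and 178 CPM, a log2 difference of -0.85 (SE 0.24, adjusted p = 0.0144). Tm7sf2 fell from 121, 135 and 135 to 84.7, 93.2, 84.3 and 78.7 CPM, a log2 difference of -0.61 (SE 0.21, adjusted p = 0.037). Abcg1 rose from 11.5, 8.32 and 10.3 to 15.5, 21.97, 16.1 and 10.6 CPM, a log2 difference of 0.68 (SE 0.20, adjusted p = 0.0162), with 1 CCl4 liver within the MO range. Tm7sf2 was thus called lower with CCl4 in all 3 settings, although the Δ[O] call was lost in 10 of 14 alternatives. The 24 genes not called ranged from -0.79 (Idi1) to 0.71 (Lss). Sqle was at 166, 104 and 93.4 and 129.9, 98.1, 119.7 and 140.1 CPM (0.01, adjusted p = 0.984), Insig1 at 327, 379.9 and 233 and 437, 314, 488 and 575 (0.54, adjusted p = 0.147), Srebf2 at 71.6, 65.2 and 71.7 and 51.3, 50.6, 55.1 and 66.2 (-0.32, adjusted p = 0.305), and Abca1 at 291, 292 and 214 and 342, 310.5, 327 and 315 (0.29, adjusted p = 0.267). No call here held in every alternative: 1 gene was called without MO liver 1, MO liver 2 or CCl4 liver 3, 5 were without CCl4 liver 5, the split was 5 up and 1 down with library totals, and 2 up and 1 down with another scaling (RLE factors). Without the livers holding Xist 2 genes were called.

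Set against WT HMGB1, the Δ[O] form gave few differences that passed the test. In CCl4 livers 1 of the 27 genes was called, where 2.31% of genes were: Abcg1 was lower with Δ[O] HMGB1, at 15.5, 21.97, 16.1 and 10.6 against 26.2, 29.4, 26.5 and 27.5 CPM, a log2 difference of -0.77 (SE 0.18, adjusted p = 0.0236). The groups did not overlap, and 7.07% of all genes tested were lower without overlap. The call was lost in 7 of 15 alternatives: the fit of these groups alone, and without WT HMGB1 CCl4 liver 3, 4 or 5 or Δ[O] CCl4 liver 1, 3 or 5 (0 genes called). Without WT HMGB1 CCl4 liver 1, Fdps was called as well. All 18 enzymes had a positive log2 difference, from 0.21 to 0.64, and none was called. Hmgcs1 had an adjusted p of 0.137 and a 95% interval of 0.22 to 1.06. The macrophage markers summed to 335 to 709 CPM in the Δ[O] CCl4 livers, below the 958 to 1043 with WT HMGB1. Stellate markers were also lower, at 500 to 1267 CPM against 1427 to 2084. Hepatocyte markers were higher, at 89203 to 110686 CPM against 78385 to 87025. The part of these cell types was not tested.

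In MO livers no gene of the 14129 was called by edgeR between the Δ[O] and WT constructs (0%), 1549 had an unadjusted p under 0.05, and DESeq2 called 21, no member among them. The median over the 27 genes was -0.29 and 16 of the 18 enzymes were negative, with Hmgcs1 at -0.74 (adjusted p = 0.35). Without the livers holding Xist, Abca1 was called higher with Δ[O] HMGB1. For the difference between the responses edgeR called no gene (0%), 2098 had an unadjusted p under 0.05, and DESeq2 called 85, Hmgcs1 among them (log2 difference 1.40, adjusted p = 0.0154). In edgeR Hmgcs1 was at 1.38 (SE 0.33, adjusted p = 0.173), all 18 enzymes were positive, and Abcg1 was at -0.97 (adjusted p = 0.205).

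**Figure D2:**
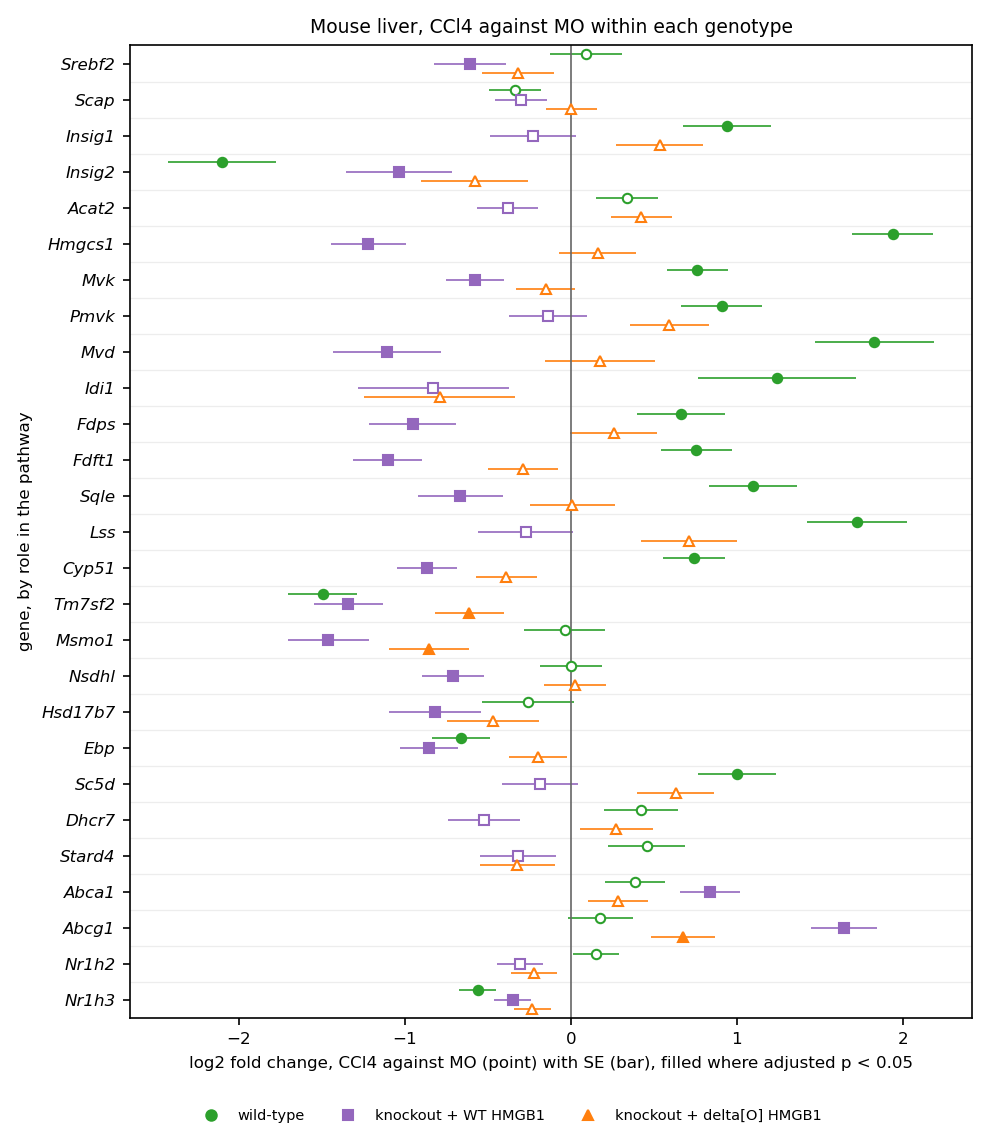
Log2 difference between CCl4 and MO livers for each of the 27 genes, in wild-type mice and in knockout mice with WT or Δ[O] HMGB1 (points: estimates; lines: SE; filled points: adjusted p under 0.05). Hmgcs1 stands at 1.94, -1.22 and 0.16 in the 3 settings, whereas Tm7sf2 is below 0 in each.

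Neighbouring branches of sterol metabolism were followed through lists of other genes. Of 8 genes for bile acid and oxysterol synthesis, 1 rose and 6 fell with CCl4 in the wild type (46.3% of all genes called), with a median of -1.44. The falls included Cyp27a1, a mitochondrial sterol hydroxylase (-1.80, adjusted p = 3.38e-07), Cyp7b1, an oxysterol hydroxylase (-5.004, adjusted p = 1.06e-05), and Amacr (-1.08, adjusted p = 2.46e-05). In the knockout 1 rose and 5 fell with WT HMGB1 (47.3% of all genes called), and 1 rose and 4 fell with Δ[O] HMGB1 (24.2%). The shares of all genes called hold for the other lists in the same comparisons. Cyp27a1 had log2 differences of -1.39 (adjusted p = 7.69e-06) and -0.84 (adjusted p = 0.00198) there. Of 9 genes for canalicular sterol export and other targets of the liver X receptors, 2 rose and 5 fell in the wild type. In the knockout 3 of the 9 rose and none fell with either construct, and Scd2, a fatty acid desaturase, rose in all 3 settings (2.07, 1.86 and 3.35). Of the same 9, 6 were higher in knockout than in wild-type CCl4 livers and none lower (28.8% of all genes called), with Scd2 at 1.82, Pltp, the phospholipid transfer protein, at 1.32, and Srebf1, which encodes SREBP1, at 0.92. Of 9 uptake genes 6 were higher in that comparison and none lower, Cd36 and Lrp1 among them, at 1.08 and 0.82. In MO livers (24.2% of all genes called) the same lists went both ways between these genotypes. Of the 9 targets 4 were higher and 3 lower, with a median of -0.15, Srebf1 among the higher (2.25, adjusted p = 1.17e-05) and Smpdl3a among the lower (-0.49, adjusted p = 0.0121). Of the 9 uptake genes 1 was higher, Cd36, a fatty acid and lipoprotein receptor (2.74, adjusted p = 1.67e-06), and 2 were lower, Scarb1, the receptor for high-density lipoprotein (-0.37, adjusted p = 0.0287), and Mylip, which both lists hold (-0.57, adjusted p = 0.0396). Sterol ester and transport genes moved both ways: with CCl4 3 of 10 rose and 3 fell in the wild type, Stard5, Osbp and Nceh1 at -1.03, 0.77 and -1.36, and 2 rose and 3 fell in the knockout with WT HMGB1, where Soat1, which esterifies cholesterol, rose by 1.57.

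In HSC-T6 cells 26 of the 27 genes passed the filter on low counts, and each HMGB1 form was compared with the same 3 BSA cultures. Abcg1 had no count in any of the 12 cultures, which allows at most 0.0743, 0.0630, 0.0609 and 0.0603 CPM in the BSA, [H], [O] and [SO3] groups (3 counts over each group's total). These limits cover counting error only, and whether reads of the rat gene could be mapped and counted was not tested. The cells carried stellate and myofibroblast markers at a sum of 61199 to 64690.5 CPM with BSA, although Lrat, which marks quiescent stellate cells, was at 0 in every culture, and the 7 hepatocyte markers in the table summed to 23.5 to 32.9 CPM over the 4 groups, with 6 of the 7 under 1 CPM and Ttr and Hnf4a at 0. With [H] HMGB1 none of the 26 genes was called by edgeR, where 0.799% of the 10140 genes tested were. Of the 26, 3 had an unadjusted p under 0.05, DESeq2 called none, and the median was -0.01.

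[O] HMGB1 lowered most enzymes by a small amount. Of the 26 genes, 4 rose and 14 fell, where 43.9% of genes were called, with a median of -0.14 against -0.01 over all genes. Of the 18 enzymes 13 fell and 2 rose. Insig1 was at 277, 283 and 326 CPM with BSA and 228, 229.6 and 229 with [O] HMGB1, a log2 difference of -0.37 (SE 0.05, adjusted p = 3.9e-07). Sqle was at 145, 144 and 162 and 123, 122 and 129.6 CPM (-0.27, SE 0.05, adjusted p = 5.61e-05). Hmgcs1 was at 447, 452 and 487 and 390.1, 398 and 406 CPM, a log2 difference of -0.22 (SE 0.04, adjusted p = 0.000105). In each the 3 treated cultures lay below the 3 controls, as they did in 23.9% of all genes tested. Msmo1 was at 258, 268 and 285 and 223, 231 and 234 CPM with a log2 difference of -0.23 (SE 0.04, adjusted p = 3.64e-05). The other falls were Acat2, Mvk, Pmvk, Mvd, Fdps, Fdft1, Cyp51, Tm7sf2, Ebp and Dhcr7, from -0.27 to -0.12.

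Among the genes that rose with [O] HMGB1, Idi1, which interconverts the isoprenoid units, went from 88.9, 83.8 and 99.4 to 108, 109 and 117 CPM, a log2 difference of 0.29 (SE 0.05, adjusted p = 5.51e-05). Scap, the SREBP escort, went from 124, 119 and 105 to 149, 138 and 135 CPM, a log2 difference of 0.28 (SE 0.06, adjusted p = 0.000233). Nr1h2, the liver X receptor beta, went from 107, 104 and 92.1 to 123, 115 and 118 CPM, a log2 difference of 0.23 (SE 0.05, adjusted p = 0.000575). All 3 were separate from BSA, and 26.9% of all genes tested lay wholly above BSA. Lss rose from 134, 129 and 126 to 147, 148 and 145 CPM, a log2 difference of 0.18 (SE 0.04, adjusted p = 0.00139). Those not called were Srebf2, at 385, 379.6 and 354 and 411, 395 and 391 CPM (0.10, adjusted p = 0.0574), Abca1, at 589.8, 581 and 564 and 553, 551 and 511 (-0.10, adjusted p = 0.1), Insig2, Nsdhl, Hsd17b7, Sc5d, Stard4 and Nr1h3.

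[SO3] HMGB1 lowered 11 of the 18 enzymes and raised 1, with Hmgcs1 and Stard4 falling most of the 26 genes. Of the 26 genes, 2 rose and 13 fell, where 63.3% of genes were called, so the share of members called was not above that of genes at large. The median was -0.17 against -0.02. Hmgcs1 was at 219.9, 233 and 238 CPM, below every BSA culture by a wide gap, with a log2 difference of -1.01 (SE 0.04, adjusted p = 2.24e-16), 2.01-fold lower than with BSA. Mvd fell from 141, 143 and 138 to 106, 103 and 101 CPM, a log2 difference of -0.45 (SE 0.04, adjusted p = 1.91e-09). Mvk, the mevalonate kinase, fell from 59.95, 62.97 and 57.1 to 43.7, 42.2 and 38.3 CPM, a log2 difference of -0.54 (SE 0.06, adjusted p = 8.21e-09). All of these act on the route from acetyl-CoA to the isoprenoid units, and no treated culture lay in the BSA range. Of all genes tested, 32.5% lay wholly below BSA and 32.1% wholly above. Fdft1 fell from 185, 196 and 192 to 149, 146 and 147 CPM, a log2 difference of -0.37 (SE 0.04, adjusted p = 5.36e-08). Stard4, a carrier of sterol between membranes and a target of SREBP2, stood at 11.98, 11.9 and 13.9 CPM with BSA and 6.12, 6.73 and 7.32 with [SO3] HMGB1, a log2 difference of -0.89 (SE 0.10, adjusted p = 6.6e-08); it was the next in order of p and was singled out after its values were seen. Sqle, at 128, 129 and 134 CPM, fell (log2 difference -0.21, adjusted p = 0.0005). The other falls were Insig2, Pmvk, Fdps, Lss, Tm7sf2, Ebp and Dhcr7, from -0.43 to -0.16.

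Abca1 rose with [SO3] HMGB1, from 589.8, 581 and 564 to 683, 636 and 768 CPM, a log2 difference of 0.27 (SE 0.05, adjusted p = 9.6e-05), and Cyp51 rose from 482, 487 and 537 to 559, 573 and 576 CPM, a log2 difference of 0.18 (SE 0.04, adjusted p = 0.000472). Insig1 was at 287, 286 and 294 CPM and did not pass the test (-0.03, adjusted p = 0.554), nor did Srebf2, at 362, 359 and 391 (-0.01, adjusted p = 0.832). Scap, Acat2, Idi1, Msmo1, Nsdhl, Hsd17b7, Sc5d, Nr1h2 and Nr1h3 were not called either. In these cultures 4 proliferation markers summed to 398 to 429 CPM against 789 to 854 with BSA and 743 to 768 with [O] HMGB1, and the stellate markers to 44417 to 47603, and their part in the falls was not tested.

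Between the [SO3] and [O] forms 18 of the 26 genes were called, 5 higher and 13 lower with [SO3], where 59.2% of genes were called. With library totals alone the split was 10 and 9. Hmgcs1 differed by -0.79 (SE 0.04, adjusted p = 1.72e-14), Lss, at 113, 111 and 116 CPM, a log2 difference of -0.37 (SE 0.04, adjusted p = 4.06e-08), and Mvd, at 118, 124 and 127 CPM with [O], a log2 difference of -0.26 (SE 0.04, adjusted p = 1.26e-05). Stard4, at 10.8, 11.8 and 11.6 CPM with [O] HMGB1, differed by -0.76 (SE 0.10, adjusted p = 8.56e-07). Higher with [SO3] were Cyp51, at 436, 459.8 and 482 CPM with [O] (0.31, adjusted p = 5.44e-07), Insig1 (0.34, adjusted p = 8.54e-07), Abca1 (0.37, adjusted p = 1.93e-06) and Msmo1 (0.24, adjusted p = 1.28e-05), each without overlap. Of all genes tested, 30.6% were higher with [SO3] without overlap and 31.7% lower. The forms therefore differed gene by gene: Lss was above BSA with [O] and below it with [SO3], and Insig1 was called below BSA with [O] and not with [SO3], the difference itself being called here. Hsd17b7 was the other higher gene, and Srebf2, Scap, Insig2, Mvk, Idi1, Fdft1, Ebp, Dhcr7 and Nr1h2 were the other lower ones. Acat2, Pmvk, Fdps, Sqle, Tm7sf2, Nsdhl, Sc5d and Nr1h3 were not called.

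**Figure D3:**
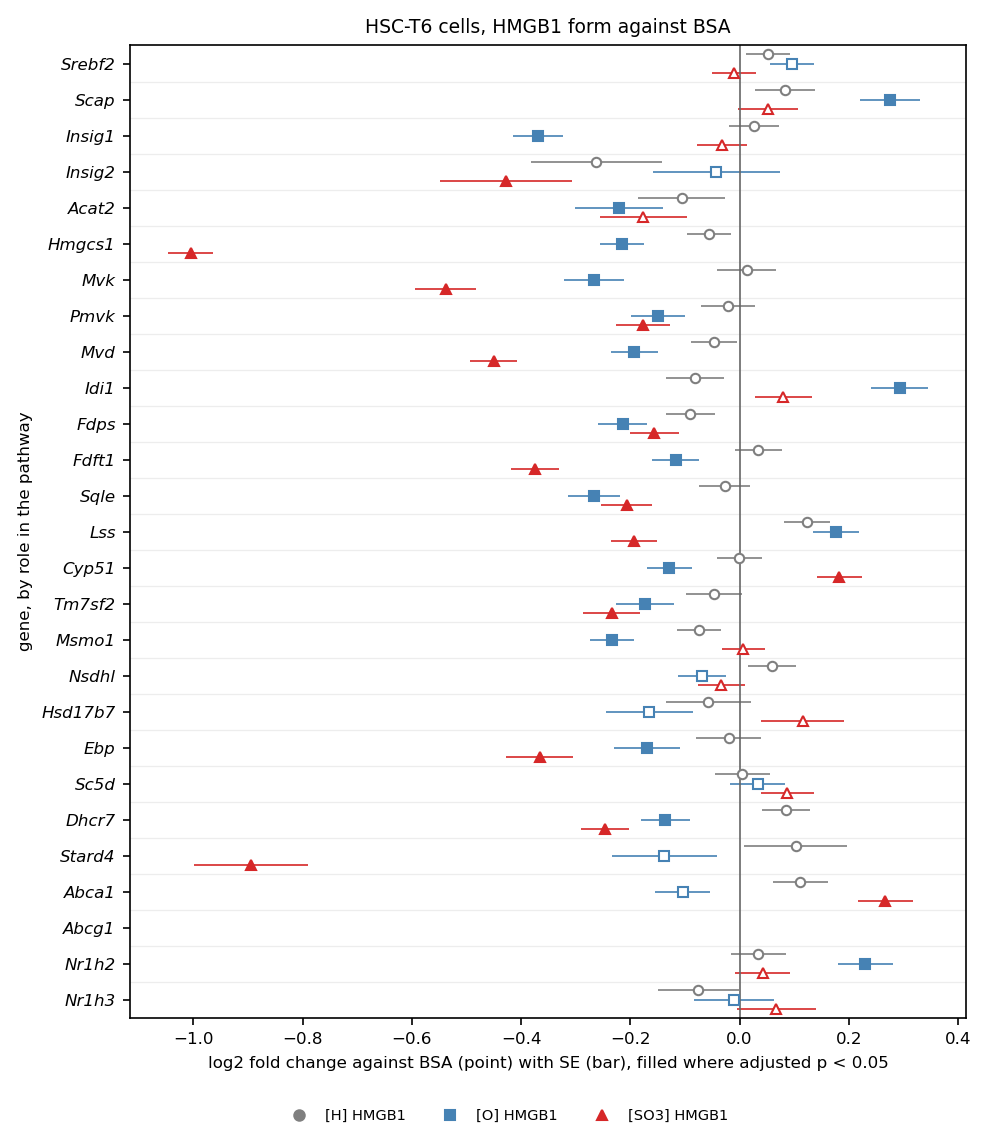
Log2 difference from BSA cultures of HSC-T6 cells for 26 genes, after [H], [O] or [SO3] HMGB1 (points: estimates; lines: SE; filled points: adjusted p under 0.05). [H] values lie near 0, and Hmgcs1 at -1.01 and Stard4 at -0.89 with [SO3] HMGB1 are the farthest below it.

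Lists of other sterol genes moved in the cells too. Cyp7b1, an oxysterol hydroxylase, was at 68.8 ± 1.41 CPM with [O] HMGB1 against 2.57 ± 0.368 with BSA (SD, n = 3), a log2 difference of 4.75 (SE 0.11, adjusted p = 9.29e-22), and 3 of the 6 tested genes of its list rose and 2 fell, Amacr among them (log2 difference -1.25), where 43.9% of all genes were called. Of the 7 tested uptake genes 2 rose, Lrp1 among them (0.41, adjusted p = 0.000115), and 5 fell, Vldlr among them (-0.27, adjusted p = 4.98e-06). Gramd1b, which moves sterol from the plasma membrane to the endoplasmic reticulum, rose by 1.82 (SE 0.07, adjusted p = 1.65e-16). With [SO3] HMGB1 Soat1 rose (0.39, adjusted p = 3.41e-08), and the lipoprotein receptor Lrp1 (-0.57, adjusted p = 2.57e-06), Cyp27a1 (-1.01, adjusted p = 1.79e-06) and Rnf145, a ligase that acts on SCAP (-0.52, adjusted p = 2.76e-10), fell. No gene of the 6 lists was called with [H] HMGB1.

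In the fibrosis livers at 4 weeks, edgeR called no gene in any comparison of HMGB1 forms (0% of 13487 genes for [H] against BSA, 0% for [O] against BSA, and 0% for [O] against [H]). Unadjusted p-values under 0.05 numbered 1448, 727 and 1413, and DESeq2 called 3, 5 and 278 genes. Among the members DESeq2 called 1, Abcg1, in the last comparison (1.14, adjusted p = 0.0269). These comparisons share livers with one another. Median differences over the 27 genes were 0.48, 0.22 and -0.20, and all 18 enzymes were negative for [O] against [H]. Over all genes the medians were -0.00, -0.01 and -0.06. Hmgcs1 was at 645, 33.7 and 312 CPM in BSA livers 1 to 3, 753, 308 and 693 with [H] HMGB1 and 419, 354 and 837 with [O] HMGB1. BSA liver 2 was far below all the others. Liver 2 of each of the 3 groups was the lowest of its group in 17 of the 18 enzymes. The mean log2 level of the enzymes, centred over the 18 livers, was -2.08, -0.50 and -0.54 in these 3 livers.

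Several clock genes of the same livers stood apart as well. Arntl was at 9.04, 32.5 and 7.69 CPM in BSA livers 1 to 3, 11.6, 40.4 and 7.64 with [H] and 15.8, 39.8 and 9.27 with [O] HMGB1, highest in liver 2 each time. Dbp, whose level runs opposite to Arntl over the day, was at 54.8, 8.25 and 112, 89.5, 13.5 and 192 and 43.9, 5.15 and 86.5 CPM. Each number 2 also held Xist, as each number 3 did. The part of these in the low enzyme levels was not tested.

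Abcg1 did not follow this order. It was at 20.8, 27.4 and 48.04 CPM with BSA, 11.9, 17.5 and 15.3 with [H] HMGB1 and 29.8, 32.9 and 36.5 with [O] HMGB1, so the [H] livers lay below both other groups (-1.10, adjusted p = 0.414 against BSA, and 1.15, adjusted p = 0.132 for [O] against [H]). Of all genes tested, 4.87% lay wholly below BSA with [H] HMGB1, and 9.27% lay wholly above [H] with [O] HMGB1. Abca1 was at 288 to 319, 218 to 338 and 233 to 369 CPM, and Srebf2 at 118 to 151, 149.6 to 177 and 125 to 159. Insig1 was at 555, 124 and 453, 429.7, 279.5 and 473 and 253, 269.9 and 364 CPM, and Sqle at 231, 51.6 and 143, 263, 158 and 231 and 173, 170.0 and 253. Macrophage markers summed to 728 to 983 CPM in the [H] livers, lowest in the same group as Abcg1. With BSA they summed to 1160.4 to 1717 CPM and with [O] HMGB1 to 1633 to 2041. Other cell types were also low with [H] HMGB1, though overlapping BSA. Stellate markers summed to 206 to 424 CPM, against 389 to 1529 with BSA and 1199 to 1367 with [O] HMGB1. Endothelial markers summed to 112 to 253 CPM, against 246 to 422 and 287 to 358. Hepatocyte markers overlapped between the groups. The part of these cell types was not tested.

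In the resolution livers edgeR again called no gene for [SO3] HMGB1 against BSA (0%; 812 at an unadjusted p under 0.05, 80 by DESeq2) or for HMGB1 Ab against BSA (0%; 279 and 7), and DESeq2 called no member in either. With [SO3] HMGB1 all 18 enzymes had a positive difference, and for 13 of the 27 genes, 11 of them enzymes, each of the 3 [SO3] livers lay above each BSA liver, where 11.1% of genes did so. The 13 were Srebf2, Scap, Acat2, Mvk, Pmvk, Idi1, Fdft1, Cyp51, Tm7sf2, Msmo1, Nsdhl, Hsd17b7 and Ebp, none of which passed the test. Msmo1 was at 133, 152 and 153 CPM with BSA and 304, 188 and 387 with [SO3] HMGB1, a log2 difference of 1.004 (SE 0.42, adjusted p = 0.743). Srebf2 was at 123, 124 and 120.5 and 242, 149.7 and 172 CPM, 0.62 (SE 0.19, adjusted p = 0.401). Number 2 of the [SO3] livers was the lowest of its group in 18 of 18 enzymes, and numbers 1 and 2 held Xist. Some clock genes did not overlap between the same groups. Arntl was at 34.8, 25.8 and 9.79 CPM with BSA and 8.42, 5.48 and 1.12 with [SO3] HMGB1. Dbp was at 35.3, 38.4 and 101 CPM with BSA and 137, 137 and 245 with [SO3] HMGB1. Tef and Per1 did not overlap either, whereas Npas2, Per2, Per3, Nr1d1 and Cry1 did. The part of the clock genes in the enzyme levels was not tested. Without the livers holding Xist, which leaves 1 [SO3] liver, Tm7sf2 alone was called (1.07, adjusted p = 0.0465).

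Hmgcs1 was at 662, 668 and 436 CPM with BSA, 1091, 486 and 675 with [SO3] HMGB1 and 608, 731 and 478 with HMGB1 Ab, with overlap throughout. Its 95% interval was -0.94 to 1.64 for [SO3] HMGB1 and -1.25 to 1.33 for HMGB1 Ab on the log2 scale. Sqle was at 135, 141 and 110.3, 224, 125 and 243 and 145, 139.6 and 132 CPM, and Insig1 at 585, 562 and 487, 489, 379 and 497 and 593, 457 and 333. Abca1 was at 232 to 309, 209.7 to 234 and 193 to 379 CPM, Abcg1 at 15.6 to 18.8, 12.9 to 25.3 and 13.1 to 23.2, and Srebf2 at 102 to 143 with HMGB1 Ab. With HMGB1 Ab the median over the 27 genes was 0.07, near that of all genes.

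Resolution against fibrosis in BSA livers had 9% of genes called and none of the 27. The nearest were Abcg1 (-0.90, adjusted p = 0.0674) and Nr1h3, at 132, 82.9 and 150.2 CPM in fibrosis and 178, 186 and 169 in resolution (0.55, adjusted p = 0.0771). DESeq2 called both, edgeR called Abcg1 without fibrosis BSA liver 1 and Nr1h3 without liver 3, and 3 other members, Sqle, Lss and Cyp51, were called lower when the livers holding Xist were left out, which leaves 1 fibrosis liver. In the lists of other genes, Cyp7b1 (3.40, adjusted p = 0.0361) and Hsd3b7 (0.83, adjusted p = 0.0226) were higher in resolution, and Ch25h, which makes an oxysterol in macrophages (-6.71, adjusted p = 0.0409), Soat1 (-1.14, adjusted p = 0.0273), Nceh1 (-0.79, adjusted p = 0.0293) and Lrp8 (-3.65, adjusted p = 0.0418) were lower. No gene of these lists was called in the other comparisons of this experiment.

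**Figure D4:**
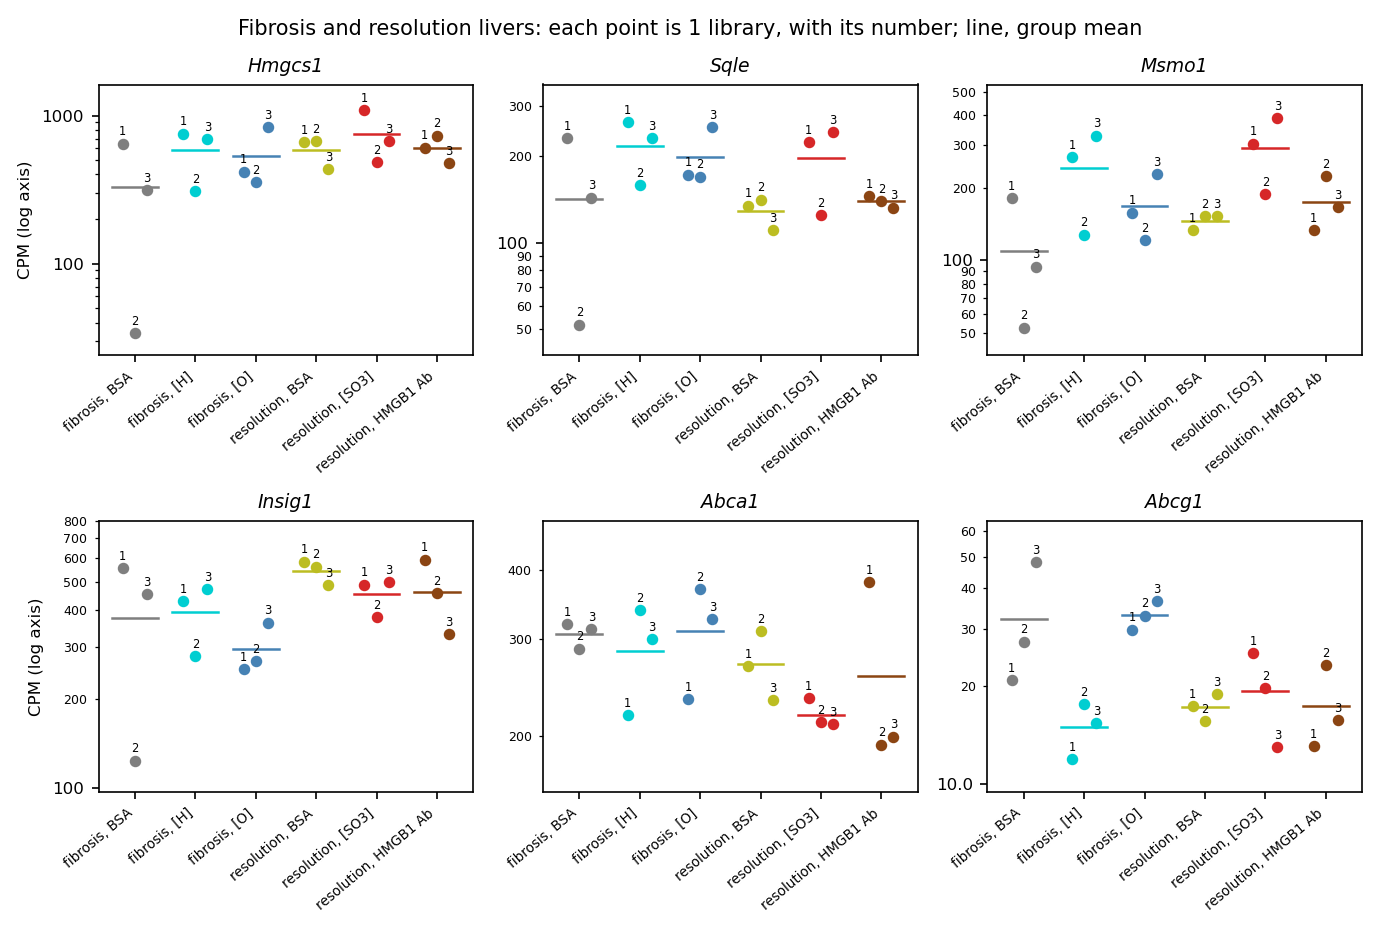
CPM on a log scale of 6 genes in each of the 18 fibrosis and resolution livers, by group (points: livers, with numbers; lines: group means). Hmgcs1 in fibrosis BSA liver 2 lies at 33.7 CPM, below all other livers.

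Some levels carry an uncertainty from overlapping or near-identical genes, the strand setting of the counting being unknown here. On GRCm38.p6, 18.3% of the exon bases of Fdft1 overlap Ctsb on the other strand, 26.7% of those of Fdps overlap Gm43738 on the same strand, 12.1% of those of Hmgcs1 overlap the antisense gene Gm48342 and 12.1% of those of Tm7sf2 overlap Vps51. Scap, Idi1, Cyp51, Lss and Nr1h3 overlap others as well, and Acat2 has a close copy, Acat3.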

How the data were processed

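Each table held deposited whole-number read counts per gene, made by the authors, with libraries prepared as stranded mRNA per the labels' protocols. The build is mm10 per the submitters' processing notes, for the rat cells too, with aligner and counter not given in the sources used here. Rows without a gene name (reads on no feature equal to 32.0 to 35.2% of gene counts for the cells, 5.50 to 8.51% for livers given MO or CCl4) were left out.

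Groups came from the labels. In R 4.3.3 with edgeR 4.0.16, genes passing filterByExpr (minimum count 10, total 15) were scaled by TMM and fitted per table over all groups (glmQLFit, robust, and glmQLFTest), without a replicate block, and p-values were adjusted over all genes. The procedure was tested on simulated data. The alternatives were RLE factors, library totals, no filter, DESeq2 1.42.0, the replicate block, the compared groups alone, leaving out each library, and, added after seeing the data, leaving out livers with Xist above 10 CPM. Same-numbered samples deviated together in every pair (correlation over 0.1) in the 3 fibrosis comparisons, both Δ[O] against WT construct comparisons and the CCl4 comparison of genotypes, and not in the others.

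Genes named with full values are, per comparison, up to 4 in each direction by adjusted p, with Hmgcs1, Sqle, Insig1, Srebf2, Abca1 and Abcg1 throughout, and up to 3 called genes of each further list. The members and lists were chosen with earlier results of these data known. Replicate pairs differed beyond counting noise (chi-square at least 1.40 per degree of freedom).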

Additional observations from a re-analysis of the deposited data

Results flagged for a closer look

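In a group of 4 livers, a value is singled out where its gap to the nearest other exceeds Dixon's 95% critical value as a share of the group's range, which chance alone brings about now and then over so many genes and groups. Knockout CCl4 liver number 1 with WT HMGB1 stood above its group for Insig1 (528.8 CPM), Acat2 (74.2), Fdps (225.8) and Lss (137.1). Knockout CCl4 liver number 5 with Δ[O] HMGB1 stood above its group for Mvd (46.5), Fdft1 (168.2) and Msmo1 (178.4).

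The CCl4 response differed between knockout livers with WT HMGB1 and wild-type livers, by edgeR's test of the difference, in 15 genes. The log2 differences were Insig1 -1.17, Hmgcs1 -3.16, Mvk -1.34, Pmvk -1.05, Mvd -2.94, Idi1 -2.07, Fdps -1.62, Fdft1 -1.86, Sqle -1.76, Lss -1.998, Cyp51 -1.61, Msmo1 -1.42, Sc5d -1.18, Dhcr7 -0.95 and Abcg1 1.47. The calls of Dhcr7, Idi1, Pmvk, Insig1 and Sc5d were lost in 15, 13, 11, 9 and 3 of 21 alternatives. Genotype and construct cannot be told apart in this difference.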

How the results depend on the processing

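No called gene changed direction under any alternative run. Of the genes called, 12 of 16 (wild-type CCl4 response), 9 of 17 (knockout with WT HMGB1), 0 of 3 (with Δ[O] HMGB1), 9 of 13 (MO, genotypes), 5 of 8 (CCl4, genotypes), 10 of 15 (difference of responses), 0 of 1 (CCl4, constructs), 11 of 18 ([O] cells), 15 of 15 ([SO3] cells) and 14 of 18 ([SO3] against [O]) kept the call in all. Counts that moved by over 1.5 times follow. For CCl4 in the knockout with WT HMGB1, library totals gave 9 genes in place of 17. With Δ[O] HMGB1, 3 became 6 with library totals, 6 with DESeq2, 8 with the replicate block, 5 with the compared groups alone, and 1 to 5 leaving out single livers (5 without CCl4 liver 5, where Fdft1, Ebp and Nr1h3 were new). For the constructs with CCl4, the compared groups alone gave 0 in place of 1, and single livers left out gave 0 to 2. For the difference of responses between constructs, DESeq2 gave 1 and single livers left out 0 to 2 (Hmgcs1 and Abcg1 without knockout MO liver 3). The genotypes compared under CCl4 ranged from 5 to 12 with single livers left out. For [O] against [H] fibrosis livers DESeq2 gave 1. For resolution against fibrosis DESeq2 gave 2, leaving out livers with Xist 3, and single livers left out 0 to 1. Leaving out livers with Xist gave 1 for [SO3] against BSA in resolution and 1 for the constructs with MO. The replicate block moved no other count by over 1.5 times. In comparisons where same-numbered samples deviated together, the block gave 0 members for the fibrosis livers and 1 and 0 for the constructs. For the genotypes under CCl4 it gave 9, with Abca1 gained. The causes were not tested. Scaling by library totals moved the median of all genes by 0.46, 0.30 and 0.17 in the 3 CCl4 responses, 0.26 for the genotypes with MO, -0.16 and -0.13 for the differences of responses, and 0.14 and -0.10 for [O] against [H] and resolution against fibrosis; for the genotypes under CCl4 the split became 3 higher and 5 lower. The 0 counts of Abcg1 in the cells set only a counting limit.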
